A study of Homo sapiens with 60 samples.

Results

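SW1783 cells, an established human astrocytoma cell line, were exposed for 24 h to a hot water extract of Scutellariae Radix at a high dose (410 µg/mL) or a medium dose (82 µg/mL), and their RNA was sequenced. Scutellariae Radix is the dried root of Scutellaria baicalensis, a drug of East Asian medicine rich in flavones such as baicalin, baicalein and wogonin. The comparison takes 6 of the 60 libraries of the series, 3 at each dose, which are defined by their dose labels. The comparison and the gene lists below were chosen with earlier results of these data known. The other libraries used here are 3 of the same extract at a low dose (16.4 µg/mL), 3 of the vehicle, and 3 at the high and 3 at the medium dose of 2 further extracts, Coptis (20 and 4 µg/mL) and Pinellia (500 and 100 µg/mL). All cells grew in L-15 medium with 10% foetal bovine serum, and nothing else separates the Scutellaria groups in the labels than the dose. The vehicle is given as 0.1% DMSO in the sample labels and as 2% DMSO in the description of the design. By that description, an extract whose 20% inhibitory concentration lay below 500 µg/mL was used at that concentration and at 1/5 and 1/25 of it, which places 410 µg/mL at that concentration. Nothing in the labels says whether the 3 libraries of a dose came from separate cultures. The p-values below measure the spread between libraries of the same group, estimated over all 20 groups of the series. That spread may therefore be technical.

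The 3 high-dose libraries held 25626626, 25391966 and 29318172 counts over genes, and the 3 medium-dose libraries held 24952896, 25309773 and 24899797. Levels are given as counts per 1000000 (CPM) after scaling by the trimmed mean of M values, which does not divide by gene length, so they are compared between doses and not between genes. Of 15 astroglial and glioma markers, 8 stayed under 1 CPM in all 6 libraries, among them GFAP, S100B, AQP4 and ALDH1L1, the defining markers of mature astrocytes. The summed levels of marker lists and the limit of 1 CPM are in CPM of library totals, without the trimmed mean. VIM, CD44, CHI3L1 and SOX9 were well detected, and the astroglial and glioma list summed to 7743 to 7977 CPM at the high dose and 8661 to 8869 CPM at the medium dose. Markers of T cells stayed at or under 0.474 CPM in sum. Of 12 microglia and macrophage markers, 9 stayed under 1 CPM, and the summed level of the list, most of it CD68, was 162 to 187 CPM at the high dose and 158 to 164 CPM at the medium dose. CD68 was higher (log2 fold change 0.21), while PTPRC (-1.04) and CSF1R (-1.13) were lower. Across genes, log2 levels rose slightly with exon length in the 3 high-dose libraries, with slopes of 0.014, 0.069 and 0.026 per 10-fold length, and fell slightly in the 3 medium-dose libraries, with slopes of -0.035, -0.022 and -0.038. The part of that difference in the results was tested in a fit with the length trend taken out, which called 10102 genes against 10068 without it. Of those 10068 genes, 9514 (94.5%) were also called in that fit, all in the same direction, so the genes called were not all the same.

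Cells answer chemical stress through a few well-studied programmes. Phosphorylation of the translation factor eIF2 raises translation of ATF4, which switches on amino acid synthesis and transport and, with its partners CHOP and ATF3, regulators of survival. Electrophiles and oxidants release NRF2 from KEAP1, and NRF2 then drives glutathione, thioredoxin, iron storage and haem breakdown genes. MAP kinase and NF-kB signalling raise AP-1 and immediate early factors, cytokines and their own feedback inhibitors, while growth factor and BMP signals sustain the ID proteins, and proliferation requires E2F and FOXM1 targets.

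At the high dose 10068 of 17569 tested genes (57.3%) differed from the medium dose at an adjusted p under 0.05. Of these, 5050 genes (28.7% of those tested) rose and 5018 (28.6%) fell. The typical change was small: the median size among called genes was 0.39 on the log2 scale, and 3164 genes (18.0%) changed at least 1.5-fold, 1574 of them up and 1590 down. At least 2-fold changes were seen in 630 called genes that rose and 690 that fell. The 3 high-dose and the 3 medium-dose libraries did not overlap in 10596 genes (60.3%), and the median log2 fold change over all tested genes was -0.01. Every list below is to be read against these shares, since more than 1 gene in 2 was called whatever its function. Values are relative to the total of each library, so a change in RNA per cell would not be seen, and a smaller share of cells in some state cannot be told apart from less of a transcript in each cell.

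Among genes averaging at least 2 CPM, the largest rises were in secreted stress signals and chemokines, in HMOX1 and in the stress factor ATF3. CXCL2, a chemokine that attracts neutrophils (ENSG00000081041, chromosome 4, 74097035 to 74099293, minus strand), stood at 10.6, 11.0 and 10.3 CPM at the high dose, against 0.474, 0.464 and 0.437 CPM at the medium dose (log2 fold change 4.52, SE 0.20, adjusted p = 1.1e-26). GDF15, a stress-induced cytokine of the TGF-beta family (ENSG00000130513, chromosome 19, 18374731 to 18389176, plus strand), stood at 186, 199.8 and 176 CPM at the high dose, against 9.37, 9.24 and 10.9 CPM at the medium dose (log2 fold change 4.25, SE 0.06, adjusted p = 1.0e-49). THBD, thrombomodulin, which turns thrombin towards activating protein C (ENSG00000178726, chromosome 20, 23045633 to 23049741, minus strand), stood at 80.2, 84.3 and 82.7 CPM at the high dose, against 4.07, 4.41 and 4.96 CPM at the medium dose (log2 fold change 4.20, SE 0.07, adjusted p = 1.6e-47). In all 3 genes each high-dose library was more than 10-fold above each medium-dose library.

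HMOX1, haem oxygenase 1, which breaks down haem to biliverdin, iron and carbon monoxide (ENSG00000100292, chromosome 22, 35380361 to 35394214, plus strand), stood at 1196, 1288 and 1147 CPM at the high dose, against 81.4, 81.3 and 94.7 CPM at the medium dose, a 14.1-fold difference (log2 fold change 3.82, SE 0.05, adjusted p = 3.2e-50). RND3, an atypical small GTPase that loosens actin stress fibres (ENSG00000115963, chromosome 2, 150468195 to 150539011, minus strand), stood at 916, 879.7 and 921 CPM at the high dose, against 82.9, 78.8 and 82.2 CPM at the medium dose (log2 fold change 3.48, SE 0.04, adjusted p = 6.9e-53). ATF3, a bZIP repressor induced by ATF4 and by MAP kinases (ENSG00000162772), stood at 32.2, 31.6 and 33.3 CPM at the high dose, against 2.57, 2.59 and 2.74 CPM at the medium dose (log2 fold change 3.62, SE 0.10, adjusted p = 8.3e-36). The groups were far apart in each, with a spread within a dose of under 10% of its mean at the high dose. CXCL8, the chemokine interleukin 8, stood at 64.8, 64.3 and 65.9 CPM at the high dose, against 5.62, 5.49 and 5.52 CPM at the medium dose (log2 fold change 3.55, SE 0.08, adjusted p = 2.6e-39). HKDC1, a hexokinase, stood at 28.2, 30.2 and 27.9 CPM at the high dose, against 3.04, 3.25 and 3.37 CPM at the medium dose (log2 fold change 3.16, SE 0.09, adjusted p = 5.8e-35). The other members of the 12 largest rises were CXCL3 (6.13 against 0.484 CPM as means at the high and the medium dose), IL1A (5.33 against 0.420 CPM), KCP, a secreted regulator of BMP signals known from mouse (8.80 against 0.759 CPM), and KRTAP2-3, a hair keratin associated protein (12.5 against 1.37 CPM). KRTAP2-3 has close copies beside it, and how reads were shared among them could shift its value.

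Among genes averaging at least 2 CPM, 3 of the 12 largest falls were in ID genes, which encode helix-loop-helix inhibitors of differentiation factors and are direct BMP targets. ID3 (ENSG00000117318, chromosome 1, 23557918 to 23559794, minus strand) stood at 30.9, 29.8 and 30.3 CPM at the high dose, against 256, 247 and 280.5 CPM at the medium dose, an 8.61-fold lower level (log2 fold change -3.11, SE 0.06, adjusted p = 4.9e-44). ID1 (ENSG00000125968, chromosome 20, 31605283 to 31606515, plus strand) stood at 49.5, 51.5 and 43.8 CPM at the high dose, against 323, 371 and 325 CPM at the medium dose (log2 fold change -2.82, SE 0.09, adjusted p = 6.0e-34). ID2 (ENSG00000115738, chromosome 2, 8678845 to 8684453, plus strand) stood at 3.44, 2.65 and 2.81 CPM at the high dose, against 28.7, 28.8 and 28.7 CPM at the medium dose (log2 fold change -3.28, SE 0.09, adjusted p = 3.2e-35). In all 3 genes every high-dose library lay below every medium-dose library, which the rule for naming the largest falls required.

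VAV3, an exchange factor for small GTPases, stood at 1.41, 1.23 and 0.994 CPM at the high dose, against 11.7, 11.2 and 10.5 CPM at the medium dose (log2 fold change -3.21, SE 0.14, adjusted p = 1.6e-26). CYP24A1, the enzyme that inactivates vitamin D, stood at 2.25, 2.31 and 1.92 CPM at the high dose, against 16.2, 17.9 and 18.2 CPM at the medium dose (log2 fold change -3.02, SE 0.10, adjusted p = 6.7e-33). ATOH8, a helix-loop-helix factor, stood at 3.13, 3.50 and 3.58 CPM at the high dose, against 27.1, 29.9 and 27.3 CPM at the medium dose (log2 fold change -3.04, SE 0.09, adjusted p = 3.9e-35). None of these 3 genes overlapped between doses, which the rule for the largest falls required. RAB7B, a GTPase of endosomal traffic, averaged 3.54 ± 0.280 CPM at the high dose and 25.8 ± 0.907 CPM at the medium dose (SD, n = 3 each). The rest of the 12 largest falls were the protease inhibitor SERPINB3 (means of 0.767 against 6.72 CPM at the high and the medium dose), whose neighbour SERPINB4 is nearly identical, the homeobox factor DLX3 (0.809 against 7.02 CPM), the stromal cell surface protein CD248 (0.486 against 3.69 CPM), FAM13C (1.20 against 9.05 CPM) and the R-spondin receptor LGR6 (0.543 against 3.99 CPM).

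**Figure D1:**
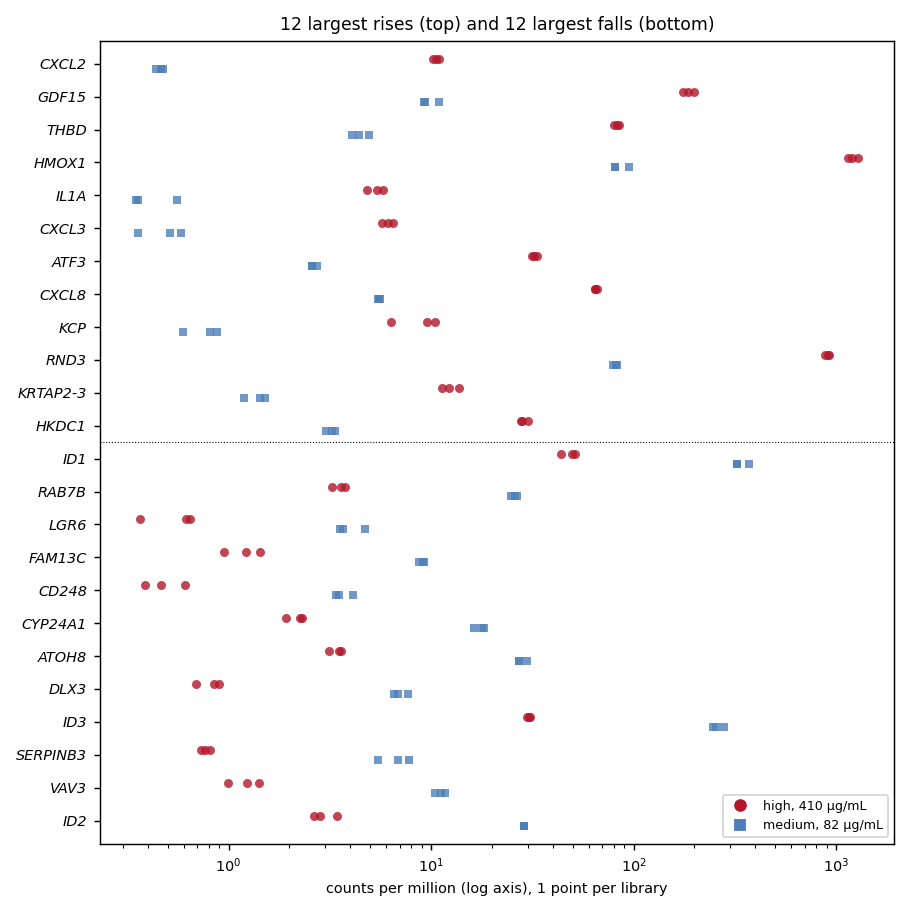
Level of the 12 genes with the largest rises (upper part) and the 12 with the largest falls (lower part), in CPM on a log axis, 1 point per library, with high-dose circles drawn above medium-dose squares. The rule that picked these genes required doses that do not overlap, so the 3 circles and the 3 squares are apart in every row. At the high dose CXCL2 stood at 10.6, 11.0 and 10.3 CPM and ID2 at 3.44, 2.65 and 2.81 CPM.

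Taken list by list, AP-1 and immediate early genes, NF-kB cytokines, ATF4 targets, FOXO targets, amino acid transporters, fatty acid and sterol synthesis and NRF2 targets had the highest medians. Histone genes, mitotic genes, collagens, replication genes and actin genes had the lowest. A gene that belongs to several lists is counted in each. In the sentences below, called members are those with an adjusted p under 0.05 over all 17569 genes.

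**Figure D2:**
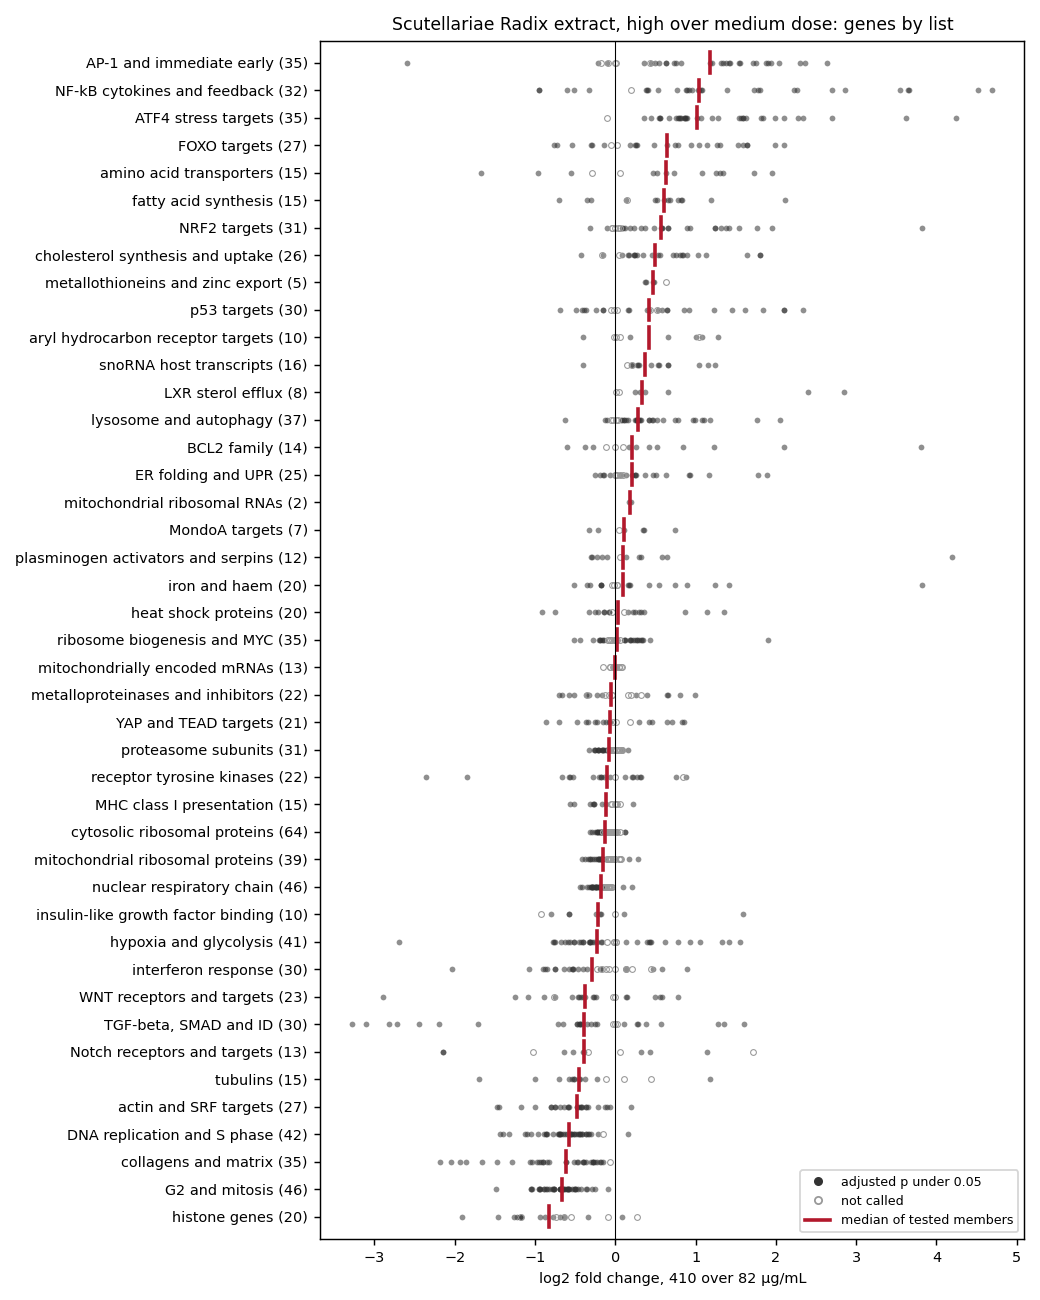
Log2 fold change of the high over the medium dose for the tested members of 43 gene lists, with the number tested in brackets, filled points for called genes, open points for genes not called and a red bar at the median. The medians run from 1.18 for AP-1 and immediate early genes to -0.83 for histone genes.

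The ATF4 programme rose almost as a whole. Of 35 tested targets, 34 rose and 1 did not pass the test, with a median log2 fold change of 1.01, against 28.7% of all tested genes called higher and a median of -0.01. TRIB3, a pseudokinase that restrains AKT and ATF4, stood at 277, 273 and 279.7 CPM at the high dose, against 42.5, 40.8 and 44.6 CPM at the medium dose (log2 fold change 2.70, SE 0.04, adjusted p = 6.9e-49). ASNS, asparagine synthetase, stood at 307, 292 and 309.5 CPM at the high dose, against 88.7, 83.9 and 85.5 CPM at the medium dose (log2 fold change 1.82, SE 0.03, adjusted p = 4.4e-47). DDIT3, which encodes the transcription factor CHOP, stood at 150.3, 135 and 148 CPM at the high dose, against 35.9, 34.5 and 31.2 CPM at the medium dose (log2 fold change 2.10, SE 0.06, adjusted p = 1.2e-35). SESN2, a stress-induced brake on mTORC1, stood at 155, 176 and 157 CPM at the high dose, against 30.5, 32.7 and 33.5 CPM at the medium dose (log2 fold change 2.34, SE 0.06, adjusted p = 1.4e-37). None of the 35 members overlapped between doses, these 4 genes included, against 60.3% of all tested genes that did not overlap. The 46 mitotic and the 42 replication genes described below did not overlap either.

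Amino acid transporters moved with them, with 10 of 15 tested members higher and 3 lower (median 0.64). SLC7A11, the cystine importer that feeds glutathione synthesis, stood at 687, 682 and 721 CPM at the high dose, against 180.5, 185 and 175 CPM at the medium dose (log2 fold change 1.95, SE 0.04, adjusted p = 4.5e-43). SLC3A2, the heavy chain that SLC7A11 and SLC7A5 share, stood at 594, 549 and 582 CPM at the high dose, against 174, 165 and 182 CPM at the medium dose (log2 fold change 1.73, SE 0.03, adjusted p = 1.0e-43). SLC38A1, a glutamine carrier, averaged 415 ± 5.84 CPM at the high dose and 164 ± 6.59 CPM at the medium dose (SD, n = 3 each). The 3 members that fell were SLC38A4 (log2 fold change -1.67), SLC43A2 (-0.55) and the glial glutamate carrier SLC1A3 (-0.97).

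Genes of protein folding in the endoplasmic reticulum rose less evenly: 15 of 25 rose and 5 fell, with a median of 0.20. DNAJB9, a co-chaperone that restrains the sensor IRE1, stood at 138, 128 and 134 CPM at the high dose, against 37.7, 35.1 and 35.2 CPM at the medium dose (log2 fold change 1.89, SE 0.05, adjusted p = 2.1e-36). HERPUD1, part of the degradation machinery of that compartment, stood at 306, 303 and 298 CPM at the high dose, against 88.3, 87.5 and 87.6 CPM at the medium dose (log2 fold change 1.78, SE 0.04, adjusted p = 3.6e-41). XBP1, the factor spliced by IRE1, stood at 259, 264 and 242 CPM at the high dose, against 113, 116 and 110.5 CPM at the medium dose (log2 fold change 1.17, SE 0.05, adjusted p = 1.9e-28). The abundant chaperones were nearly level: HSPA5 (BiP) differed by 0.26 on the log2 scale and HSP90B1 by -0.14, both called, while CALR (-0.004) and CANX (0.01) did not pass the test.

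NRF2 targets rose in 24 of 31 tested members and fell in 2 (median 0.57). SQSTM1, the autophagy receptor p62 that also binds KEAP1, stood at 1935, 2042 and 1962 CPM at the high dose, against 578, 586 and 579 CPM at the medium dose (log2 fold change 1.77, SE 0.03, adjusted p = 3.6e-46). TXNRD1, thioredoxin reductase 1, stood at 811, 757 and 807 CPM at the high dose, against 306, 305 and 305 CPM at the medium dose (log2 fold change 1.38, SE 0.03, adjusted p = 2.0e-43). GCLC, the catalytic subunit of the first enzyme of glutathione synthesis, stood at 104, 102 and 104 CPM at the high dose, against 36.5, 35.1 and 35.2 CPM at the medium dose (log2 fold change 1.54, SE 0.04, adjusted p = 2.5e-37), and its modifier subunit GCLM rose with it (log2 fold change 0.89). NQO1, a quinone reductase, averaged 241 ± 9.12 CPM at the high dose and 153 ± 3.75 CPM at the medium dose (SD, n = 3 each; log2 fold change 0.66). KEAP1 itself (-0.01), ABCC1 (-0.04), ABCC3 (0.03), EPHX1 (0.06) and AKR1C3 (-0.05) did not pass the test, and AKR1B10 (-0.32) and PRDX1 (-0.10) were lower. The AKR1C genes are near-identical copies, so their separate values are uncertain.

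Among iron and haem genes 10 of 20 rose and 6 fell. The storage chains of ferritin led the rise after HMOX1: FTH1 stood at 3325, 3453 and 3068 CPM at the high dose, against 1250, 1250 and 1178 CPM at the medium dose (log2 fold change 1.42, SE 0.07, adjusted p = 2.0e-25) and FTL at 2587, 2558 and 2545 CPM at the high dose, against 1105, 1034 and 1113 CPM at the medium dose (log2 fold change 1.24, SE 0.04, adjusted p = 2.4e-32). The zinc and iron importer SLC39A14 rose (log2 fold change 0.89), as did ALAS1, which starts haem synthesis (0.74), whereas the later haem enzymes ALAD (-0.52) and CPOX (-0.31) fell. TFRC, the transferrin receptor, was lower at 1293, 1224 and 1326 CPM at the high dose, against 1432, 1449 and 1453 CPM at the medium dose (log2 fold change -0.17, SE 0.03, adjusted p = 1.0e-06).

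Heat shock proteins were split, with 9 of 20 higher and 9 lower and a median of 0.03. HSPA1A, the inducible HSP70, stood at 254, 251 and 226 CPM at the high dose, against 116, 113 and 101 CPM at the medium dose (log2 fold change 1.15, SE 0.06, adjusted p = 9.4e-25), a value it shares with its near-identical neighbour HSPA1B (log2 fold change 1.36). The mitochondrial chaperone HSPA9 rose (0.87), while HSPB1 (-0.75), CRYAB (-0.91) and HSP90AA1 (-0.26) fell. Metallothioneins and the zinc exporter SLC30A1 rose in 4 of 5 tested members, each by less than 1.5-fold, with MT2A averaging 272 ± 6.36 CPM at the high dose and 197 ± 10.7 CPM at the medium dose (SD, n = 3 each). Proteasome subunits were called in 58.1% of members, near the 57.3% of all genes. Of 31 subunits 16 were lower and 2 higher, and none changed 1.5-fold.

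Inflammatory genes of the NF-kB pathway rose in 26 of 32 tested members and fell in 5, with a median of 1.04. LIF, a cytokine of the IL-6 family, stood at 173, 187 and 178 CPM at the high dose, against 24.8, 22.1 and 26.9 CPM at the medium dose (log2 fold change 2.87, SE 0.07, adjusted p = 4.9e-38). IL6 itself stood at 14.7, 15.0 and 16.1 CPM at the high dose, against 4.23, 4.87 and 4.72 CPM at the medium dose (log2 fold change 1.73, SE 0.10, adjusted p = 3.6e-21). TNFAIP3, the ubiquitin editor A20 that shuts off NF-kB signalling, averaged 44.7 ± 2.39 CPM at the high dose and 17.0 ± 0.484 CPM at the medium dose (SD, n = 3 each; log2 fold change 1.40). ICAM1, a leukocyte adhesion receptor, stood at 94.1, 102 and 97.9 CPM at the high dose, against 58.2, 55.5 and 59.0 CPM at the medium dose (log2 fold change 0.77, SE 0.04, adjusted p = 3.0e-22). The feedback inhibitor NFKBIA rose by 0.53 on the log2 scale, RELB by 0.88, NFKB2 by 0.92 and SOD2, a mitochondrial superoxide dismutase, by 1.04. Not all chemokines rose: CCL2, which attracts monocytes, averaged 6.70 ± 0.0819 CPM at the high dose and 13.0 ± 0.676 CPM at the medium dose (SD, n = 3 each; log2 fold change -0.96), and CCL5 (-0.60), TNFAIP2 (-0.95), IL11 (-0.51) and CSF1 (-0.33) were lower too.

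Interferon response genes went the other way. Of 30 tested members 17 fell and 4 rose (median -0.29). IFIT1, which blocks translation of viral RNA, averaged 2.57 ± 0.325 CPM at the high dose and 10.4 ± 0.471 CPM at the medium dose (SD, n = 3 each; log2 fold change -2.03). IFI44L averaged 24.4 ± 1.31 CPM at the high dose and 41.1 ± 0.949 CPM at the medium dose (log2 fold change -0.75). The members that rose were IRF1 (0.90), STAT2 (0.58), XAF1 (0.47) and IFIT5 (0.13). In class I antigen presentation 8 of 15 genes fell and 1 rose, none by 1.5-fold. The called share of this list lay near the 57.3% of all genes. HLA-B (-0.01), HLA-C (0.02) and B2M (-0.04) did not pass the test.

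AP-1 and immediate early genes had the highest median of all lists, 1.18, with 27 of 35 tested members higher and 3 lower. KLF6, a zinc finger factor induced by injury, stood at 389.7, 386 and 389 CPM at the high dose, against 78.3, 77.9 and 79.3 CPM at the medium dose (log2 fold change 2.31, SE 0.04, adjusted p = 5.7e-46). PHLDA1, an early response gene downstream of receptor tyrosine kinases, stood at 848, 866 and 816 CPM at the high dose, against 222, 240.3 and 228 CPM at the medium dose (log2 fold change 1.87, SE 0.04, adjusted p = 3.0e-41). JUN, a core subunit of AP-1, stood at 319, 335 and 301 CPM at the high dose, against 114, 123 and 117 CPM at the medium dose (log2 fold change 1.43, SE 0.04, adjusted p = 4.4e-35). The doses did not overlap in any of these genes, as in 60.3% of all tested genes.

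Some members of the list inhibit MAP kinase signalling. SPRY2, a Sprouty protein, stood at 82.2, 81.2 and 81.2 CPM at the high dose, against 18.9, 20.4 and 20.0 CPM at the medium dose (log2 fold change 2.05, SE 0.04, adjusted p = 1.3e-41), and DUSP5, a nuclear phosphatase of ERK, stood at 73.4, 73.0 and 73.5 CPM at the high dose, against 13.9, 14.5 and 14.5 CPM at the medium dose (log2 fold change 2.36, SE 0.06, adjusted p = 2.7e-38). DUSP1 averaged 112 ± 4.75 CPM at the high dose and 33.9 ± 1.35 CPM at the medium dose, JUND 81.7 ± 4.85 CPM at the high dose and 28.1 ± 1.72 CPM at the medium dose and EGR1 53.2 ± 3.13 CPM at the high dose and 23.0 ± 2.09 CPM at the medium dose (SD, n = 3 each), with log2 fold changes of 1.72, 1.54 and 1.21. The 3 members that fell were DUSP2, like DUSP5 a nuclear phosphatase of MAP kinases (-2.60), JUNB (-0.22) and FOSL2 (-0.11), so subunits of AP-1 moved in both directions.

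Since this list moved most, the promoters of its called members were searched for the sites of the factors it contains. Of 30 called members, 23 had an entry in the RefSeq promoter table (GRCh38.p14). The search covered the 250 bases before the start, on both strands, for the AP-1 site TGANTCA, the cyclic AMP response element TGACGTCA, and the CArG box bound by SRF. None of these motifs contains another. The AP-1 site was found in 0 of 23 windows, against 6.57% of 35116 promoters of all genes. The cyclic AMP response element was found in 2 of 23, against 1.65%, and the CArG box in 1 of 23, against 1.16%. The 3 windows with a match, all of genes that rose at the high dose, are shown with the matching bases in capitals:
DUSP1: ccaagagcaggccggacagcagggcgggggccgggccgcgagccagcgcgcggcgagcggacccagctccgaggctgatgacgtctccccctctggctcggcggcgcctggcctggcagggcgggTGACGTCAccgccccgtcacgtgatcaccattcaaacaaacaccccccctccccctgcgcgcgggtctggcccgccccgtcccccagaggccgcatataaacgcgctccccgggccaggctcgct
JUND: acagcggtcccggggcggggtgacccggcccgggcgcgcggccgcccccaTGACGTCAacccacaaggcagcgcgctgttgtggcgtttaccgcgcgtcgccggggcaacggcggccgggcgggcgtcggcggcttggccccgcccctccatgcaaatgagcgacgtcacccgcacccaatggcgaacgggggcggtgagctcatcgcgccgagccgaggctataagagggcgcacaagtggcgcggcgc
EGR1: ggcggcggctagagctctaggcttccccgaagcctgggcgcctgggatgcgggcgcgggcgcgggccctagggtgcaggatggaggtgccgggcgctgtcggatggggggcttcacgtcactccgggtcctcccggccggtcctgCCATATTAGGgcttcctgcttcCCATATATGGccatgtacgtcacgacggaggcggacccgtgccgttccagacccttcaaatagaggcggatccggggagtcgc
The first window is DUSP1 (chr5:172771196-172771445, minus strand), the next JUND (chr19:18281623-18281872, minus strand) and the last EGR1 (chr5:138465229-138465478, plus strand). A match is a description of letters, and the absence of a match says nothing of binding by the factor.

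Targets of p53 were mixed, with 17 of 30 higher and 8 lower (median 0.42). CDKN1A, the cell cycle inhibitor p21, stood at 70.9, 76.6 and 73.7 CPM at the high dose, against 21.6, 19.4 and 20.9 CPM at the medium dose (log2 fold change 1.84, SE 0.05, adjusted p = 7.2e-36). GADD45A, a growth arrest factor that is also on the FOXO list, stood at 204, 202 and 194 CPM at the high dose, against 46.6, 45.3 and 47.7 CPM at the medium dose (log2 fold change 2.10, SE 0.05, adjusted p = 7.1e-40). TNFRSF10B, the death receptor DR5, which CHOP also induces, stood at 209, 213 and 214 CPM at the high dose, against 67.9, 69.2 and 69.7 CPM at the medium dose (log2 fold change 1.62, SE 0.03, adjusted p = 4.8e-45). MDM2, the ligase that degrades p53, averaged 72.1 ± 2.03 CPM at the high dose and 48.3 ± 1.77 CPM at the medium dose (SD, n = 3 each; log2 fold change 0.58). Other known p53 targets were lower, among them ZMAT3 (-0.69), PHLDA3 (-0.48), FAS (-0.39) and TP53I3 (-0.37).

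In the BCL2 family 8 of 14 rose and 3 fell. The pro-death BH3-only genes HRK (means of 1.34 against 0.0925 CPM at the high and the medium dose), BBC3 (3.12 against 0.720 CPM) and PMAIP1 (136 against 58.4 CPM) rose most. The guardians BCL2L1 (log2 fold change 0.84), BCL2 (0.52) and MCL1 (0.42) rose as well, while BMF (-0.60), BID (-0.38) and BAD (-0.27) fell.

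Proliferation genes fell almost without exception. Each of the 46 mitotic and G2 genes was called lower (median -0.67), against 28.6% of all genes. MKI67, the antigen Ki-67, stood at 117, 119 and 112 CPM at the high dose, against 239, 243 and 236 CPM at the medium dose (log2 fold change -1.05, SE 0.05, adjusted p = 1.3e-25). TOP2A, topoisomerase II alpha, stood at 216, 212 and 216 CPM at the high dose, against 449.5, 448 and 441 CPM at the medium dose (log2 fold change -1.05, SE 0.04, adjusted p = 1.1e-31). KIF20A, a kinesin of cytokinesis, stood at 33.8, 34.4 and 34.3 CPM at the high dose, against 98.0, 95.1 and 94.9 CPM at the medium dose (log2 fold change -1.49, SE 0.04, adjusted p = 4.1e-36). The smallest change was -0.09 for BUB3. The doses did not overlap in any of the 46 genes, against 60.3% of all tested genes that did not overlap.

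Of 42 genes of DNA replication 40 fell and 1 rose (median -0.58). UHRF1, which maintains DNA methylation, averaged 29.6 ± 2.30 CPM at the high dose and 80.0 ± 2.54 CPM at the medium dose (SD, n = 3 each; log2 fold change -1.44). RRM2, a subunit of ribonucleotide reductase, averaged 94.0 ± 3.21 CPM at the high dose and 201 ± 2.52 CPM at the medium dose (-1.10), and PCNA, the sliding clamp, 77.5 ± 2.62 CPM at the high dose and 141 ± 7.91 CPM at the medium dose (-0.86). The gene that rose was CDC6 (0.16). Histone genes fell in 13 of 20 tested members and rose in 1 (median -0.83), with H2AX averaging 30.0 ± 2.53 CPM at the high dose and 55.2 ± 0.996 CPM at the medium dose. Most of the 31 histone genes on the list carried few reads and share sequence with each other, so their separate values are uncertain. CCND1, cyclin D1, was slightly higher at 180.4, 179 and 180.4 CPM at the high dose, against 164, 165 and 162 CPM at the medium dose (log2 fold change 0.14, SE 0.03, adjusted p = 5.3e-04).

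Lipid genes rose in the branch controlled by SREBP. Of 26 genes of cholesterol synthesis and uptake 22 rose and 2 fell (median 0.50). INSIG1, which retains SREBP in the endoplasmic reticulum, stood at 356, 372 and 374 CPM at the high dose, against 105, 107 and 103 CPM at the medium dose (log2 fold change 1.81, SE 0.03, adjusted p = 2.8e-43). SREBF1, which encodes SREBP-1, stood at 148, 172 and 151 CPM at the high dose, against 50.6, 48.7 and 51.2 CPM at the medium dose (log2 fold change 1.65, SE 0.05, adjusted p = 4.2e-33). HMGCS1, an early enzyme of the pathway, rose less (77.6 ± 1.41 CPM at the high dose and 53.8 ± 0.229 CPM at the medium dose, SD, n = 3 each), and FDPS (0.05) and PMVK (-0.17) did not pass the test.

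Fatty acid synthesis genes rose in 11 of 15 and fell in 3 (median 0.60). SCD, the delta-9 desaturase, stood at 1112, 1145 and 1145 CPM at the high dose, against 259, 267 and 258 CPM at the medium dose (log2 fold change 2.12, SE 0.03, adjusted p = 3.0e-48). FASN averaged 571 ± 28.3 CPM at the high dose and 332 ± 4.68 CPM at the medium dose (log2 fold change 0.78), but ACLY, which supplies acetyl-CoA, was lower (-0.35). Sterol efflux genes controlled by LXR rose in 6 of 8 tested members, and the other two did not pass the test. ABCA1, which exports cholesterol to apolipoproteins, stood at 529, 543 and 558 CPM at the high dose, against 71.2, 76.9 and 78.7 CPM at the medium dose, a 7.18-fold difference (log2 fold change 2.85, SE 0.04, adjusted p = 1.5e-47). ABCG1 averaged 2.15 ± 0.114 CPM at the high dose and 0.405 ± 0.120 CPM at the medium dose (log2 fold change 2.40). Genes of sterol uptake and of sterol export were thus higher in the same libraries, while APOE (0.01) and NR1H3, the LXR alpha gene (0.05), did not pass the test.

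Glycolytic and hypoxia-inducible genes were split, with 23 of 41 lower and 13 higher (median -0.23). LDHA, lactate dehydrogenase A, stood at 1056, 1012 and 1047 CPM at the high dose, against 1800, 1725 and 1782 CPM at the medium dose (log2 fold change -0.77, SE 0.03, adjusted p = 7.7e-30). The glycolytic enzymes PGK1 (-0.45), GAPDH (-0.40), ENO1 (-0.33), ALDOA (-0.29) and PKM (-0.27) were all lower on the log2 scale. VEGFA, the vascular growth factor, was higher at 492, 516 and 482 CPM at the high dose, against 283, 302 and 285 CPM at the medium dose (log2 fold change 0.78, SE 0.04, adjusted p = 1.1e-25), as were NDRG1 (1.55), ADM (1.42), the glucose carriers SLC2A3 (1.33) and SLC2A1 (0.45) and HK2 (0.42). The low end of the list was EGLN3, a HIF prolyl hydroxylase (0.780 against 5.12 CPM as means at the high and the medium dose). TXNIP, the glucose-responsive arrestin controlled by MondoA, stood at 14.3, 14.7 and 14.1 CPM at the high dose, against 8.42, 9.39 and 7.82 CPM at the medium dose (log2 fold change 0.75, SE 0.08, adjusted p = 2.1e-12), while ARRDC3 was lower (-0.32).

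Mitochondrial transcripts differed little. The test with edgeR called 0 of 13 mitochondrially encoded mRNAs (median -0.01), and MT-RNR1 (0.17) and MT-RNR2 (0.20), the mitochondrial ribosomal RNAs, were slightly higher. The count at an unadjusted p under 0.05 was 0 with edgeR and 0 with DESeq2. In other settings 2 were called without a filter on low counts or with the length trend taken out, and 1 when only the compared groups were fitted. Nuclear genes of the respiratory chain fell in 31 of 46 and rose in 2, none by 1.5-fold (median -0.17). Mitochondrial ribosomal proteins fell in 21 of 39 and rose in 2, and cytosolic ribosomal proteins fell in 35 of 64 and rose in 2, with medians of -0.15 and -0.13. The called shares of both lists, 59.0% and 57.8%, lie near the 57.3% of all genes, and their counts rest on single libraries: without medium-dose replicate 3, 14 mitochondrial and 19 cytosolic ribosomal proteins were called, and without high-dose replicate 2, 15 cytosolic ones. Ribosome biogenesis genes were mixed, with 16 of 35 higher and 9 lower.

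Transcripts that host snoRNAs and are degraded during translation rose in 13 of 16 and fell in 1 (median 0.37). GAS5 stood at 117, 99.6 and 110.3 CPM at the high dose, against 69.2, 66.8 and 71.9 CPM at the medium dose (log2 fold change 0.65, SE 0.05, adjusted p = 2.4e-16). SNHG15 averaged 25.7 ± 0.906 CPM at the high dose and 10.9 ± 0.442 CPM at the medium dose and SNHG17 28.4 ± 0.559 CPM at the high dose and 12.8 ± 0.444 CPM at the medium dose (SD, n = 3 each). The member that fell was SNHG3 (-0.41).

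FOXO targets rose in 19 of 27 and fell in 6 (median 0.64). IRS2, the insulin receptor substrate, averaged 96.8 ± 7.58 CPM at the high dose and 24.4 ± 1.73 CPM at the medium dose (log2 fold change 1.98), CITED2 321 ± 20.0 CPM at the high dose and 103 ± 3.15 CPM at the medium dose (1.64) and the ubiquitin ligase FBXO32 222 ± 1.40 CPM at the high dose and 92.6 ± 2.65 CPM at the medium dose (1.26; SD, n = 3 each). IGFBP1, a secreted binder of insulin-like growth factors that ATF4 also induces, stood at 68.8, 70.5 and 66.8 CPM at the high dose, against 21.6, 23.7 and 23.3 CPM at the medium dose (log2 fold change 1.59, SE 0.05, adjusted p = 8.9e-32). SESN3 (-0.76) and FOXO1 (-0.29) were lower, whereas FOXO3 was higher (0.78).

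Lysosome and autophagy genes rose in 30 of 37 and fell in 3 (median 0.28). MAP1LC3B, the autophagosome protein LC3B, averaged 223 ± 1.25 CPM at the high dose and 98.2 ± 3.48 CPM at the medium dose (log2 fold change 1.18). FNIP1 (1.08), FLCN (0.97) and RRAGC (1.00), which together control mTORC1 at the lysosome, rose to a similar degree, and the cholesterol exporter NPC1 rose by 0.75. TFEB, the factor that controls many of these genes, was lower (-0.63).

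Matrix genes fell throughout. Of 35 collagens and matrix proteins 34 fell (median -0.61). COL1A1, the main chain of type I collagen (ENSG00000108821, chromosome 17, 50183289 to 50201632, minus strand), stood at 664, 734 and 706 CPM at the high dose, against 3186, 3094 and 3288 CPM at the medium dose, a 4.55-fold lower level (log2 fold change -2.19, SE 0.03, adjusted p = 4.9e-47). COL1A2 stood at 470.1, 453 and 479 CPM at the high dose, against 1904, 1891 and 2002 CPM at the medium dose (log2 fold change -2.05, SE 0.03, adjusted p = 1.5e-49). COL5A1 stood at 542, 611 and 545 CPM at the high dose, against 1992, 2100 and 2064 CPM at the medium dose (log2 fold change -1.86, SE 0.05, adjusted p = 2.7e-38). The fibrillar chains of types I, III and V lay lowest, FN1, fibronectin, differed by -0.23, and COL6A2 (-0.07) was the member that did not pass the test. Metalloproteinases and their inhibitors showed no such shift, with 8 of 22 lower and 6 higher. MMP1, interstitial collagenase, averaged 69.6 ± 0.991 CPM at the high dose and 44.2 ± 0.395 CPM at the medium dose (log2 fold change 0.66).

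Actin genes and SRF targets fell in 26 of 27 and rose in 1 (median -0.48). ACTG1, gamma actin, stood at 1337, 1379 and 1374 CPM at the high dose, against 3743, 3635 and 3763 CPM at the medium dose (log2 fold change -1.45, SE 0.03, adjusted p = 4.1e-44). ACTB, beta actin, stood at 3615, 3982 and 3617 CPM at the high dose, against 7477, 7371 and 7547 CPM at the medium dose, a 2.00-fold lower level (adjusted p = 7.2e-31). ACTA2, the smooth muscle actin of myofibroblasts, stood at 31.3, 33.1 and 33.4 CPM at the high dose, against 92.2, 88.0 and 91.2 CPM at the medium dose (log2 fold change -1.47, SE 0.04, adjusted p = 5.9e-34). Actin genes share long stretches of coding sequence, so part of a change in an abundant copy may be counted in another. FHL2 was the member that rose (0.19). Tubulins fell in 11 of 15 and rose in 1: TUBB3 averaged 36.0 ± 1.28 CPM at the high dose and 117 ± 4.50 CPM at the medium dose (log2 fold change -1.70), and TUBE1, epsilon tubulin, was higher (1.18).

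YAP and TEAD targets were split, with 11 of 21 lower and 7 higher. CCN2, connective tissue growth factor, was higher at 149.6, 142 and 143 CPM at the high dose, against 89.4, 92.1 and 96.2 CPM at the medium dose (log2 fold change 0.65, SE 0.07, adjusted p = 5.1e-12), and CCN1 rose by 0.83. Plasminogen activators and serpins were also divided: PLAUR, the urokinase receptor, stood at 90.8, 91.4 and 91.2 CPM at the high dose, against 61.1, 57.5 and 64.0 CPM at the medium dose (log2 fold change 0.58, SE 0.04, adjusted p = 2.0e-19), within a list in which 6 of 12 members rose and 5 fell.

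In the TGF-beta and BMP pathway 19 of 30 genes fell and 8 rose (median -0.39). After ID1, ID2 and ID3 the largest falls were in the inhibitor SMAD6, at 2.82, 2.58 and 2.19 CPM at the high dose, against 17.3, 17.1 and 15.4 CPM at the medium dose (log2 fold change -2.72, SE 0.09, adjusted p = 2.8e-31), and in the ligand TGFB3, at 2.98, 4.19 and 3.71 CPM at the high dose, against 20.1, 19.5 and 19.6 CPM at the medium dose (log2 fold change -2.44, SE 0.09, adjusted p = 7.5e-31). ID4, the last of the family, averaged 1.19 ± 0.0367 CPM at the high dose and 5.47 ± 0.558 CPM at the medium dose (SD, n = 3 each), and BMP4, a ligand, differed by -1.71 on the log2 scale. The BMP inhibitor GREM1 (1.28) and the SMAD corepressor TGIF1 (1.61) rose, as did the ligand BMP6 (1.35).

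Receptors of other developmental pathways moved in both directions. WNT receptors and targets fell in 14 of 23 and rose in 6, with FZD4 (-1.09) and FZD2 (-0.89) lower and the secreted WNT inhibitor DKK1 higher (0.50). In the Notch pathway 6 of 13 fell and 3 rose: NOTCH3 averaged 7.49 ± 0.481 CPM at the high dose and 33.3 ± 0.975 CPM at the medium dose (log2 fold change -2.15), against rises of 0.33 for NOTCH1 and 0.43 for NOTCH2. Among receptor tyrosine kinases 12 of 22 fell and 8 rose. FGFR3 averaged 1.12 ± 0.0597 CPM at the high dose and 4.07 ± 0.243 CPM at the medium dose (-1.85) and PDGFRB 45.2 ± 2.58 CPM at the high dose and 71.5 ± 0.945 CPM at the medium dose (-0.66), whereas EGFR rose, at 512 ± 18.5 CPM at the high dose and 303 ± 7.57 CPM at the medium dose (0.76; SD, n = 3 each). Insulin-like growth factor binding genes fell in 6 of 10 and rose in 2.

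Targets of the aryl hydrocarbon receptor, which senses planar aromatic compounds, were called in 6 of the 10 tested members, near the 57.3% of all genes. CYP1A1, its classic target, was listed at 0.191, 0.500 and 0.298 CPM at the high dose, against 0.395, 0.387 and 0.199 CPM at the medium dose and did not pass the test (log2 fold change 0.00, SE 0.40, adjusted p = 1). CYP1B1 was lower at 50.3, 57.7 and 59.0 CPM at the high dose, against 70.9, 77.6 and 71.9 CPM at the medium dose (log2 fold change -0.40, SE 0.04, adjusted p = 1.1e-11). The 5 members that rose include NQO1, SLC7A5 and GREM1, which also stand on other lists here, and TIPARP, a repressor of the receptor (1.00).

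Defining markers of other cell types were mostly at or near 0: GAD2, MOG, SOX10, TYROBP, P2RY12 and C1QA had no count in any of the 6 libraries, and EPCAM and CDH1 had at most 3. Some of the detected markers changed. The sums of these lists are CPM of library totals, without the trimmed mean. KRT18, a keratin of simple epithelia, averaged 70.5 ± 2.24 CPM at the high dose and 189 ± 5.36 CPM at the medium dose (log2 fold change -1.42), KRT8 was lower too (-0.73) and CLDN4 higher (0.81). The summed epithelial list, most of it KRT18, was 86.9 to 91.4 CPM at the high dose and 208 to 218 CPM at the medium dose. SNAP25, a synaptic protein, averaged 10.9 ± 0.473 CPM at the high dose and 29.9 ± 0.449 CPM at the medium dose (-1.45), and NEFL (-0.94) and GAD1 (-0.89) were lower too, while SYT1, another synaptic protein, was higher (0.52). The neuronal list summed to 54.5 to 58.8 CPM at the high dose and 64.3 to 66.1 CPM at the medium dose. Endothelial markers summed to 40.2 to 44.3 CPM at the high dose and 38.4 to 39.6 CPM at the medium dose, and oligodendrocyte markers to 10.4 to 11.5 CPM at the high dose and 7.70 to 8.06 CPM at the medium dose. The part of these lists in the results was not tested.

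The design asks next whether the same genes already moved in the lower dose step, from 16.4 to 82 µg/mL. These steps share the medium-dose libraries, so their values are set side by side and their difference is tested in the same model. Between the medium and the low dose 289 of 17569 genes (1.64%) were called, 155 of them (0.882%) higher at the medium dose, with a median size of 0.218 on the log2 scale. That count rests on the libraries fitted: it was 169 without medium-dose replicate 3, 188 without low-dose replicate 2 and 151 when only these 2 groups were fitted. The difference between the upper and the lower step passed the test in 6725 genes (38.3%).

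The ATF4 list had the highest median of the 43 lists in the lower step. Of its 35 members 31 were higher at the medium than at the low dose (median 0.41), against 0.882% of all genes called higher, and the upper step was the larger in 31 members. With either library left out, 29 of its members were still called higher in the lower step. TRIB3 averaged 18.9, 20.6, 42.6 and 277 CPM in the vehicle, low, medium and high dose libraries, with a log2 difference of 1.05 (SE 0.05, adjusted p = 6.6e-23) between medium and low. ASNS averaged 49.2, 51.9, 86.0 and 303 CPM in the same order, and its lower step was 0.73 on the log2 scale. Both genes climbed in each step, and the vehicle libraries lay close to the low dose.

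Amino acid transporters were called in the lower step in 8 members higher and 2 lower, and NRF2 targets in 8 higher. SLC7A11 averaged 138, 107, 180.0 and 697 CPM from vehicle to high dose, lower at the low dose than in the vehicle, and its lower step was 0.76 (adjusted p = 4.4e-21). HMOX1 averaged 55.3, 57.6, 85.8 and 1210 CPM, with a lower step of 0.57 and an upper step of 3.82 on the log2 scale. SQSTM1 averaged 485, 515, 581 and 1980 CPM.

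Other lists moved mainly in the upper step. Of AP-1 and immediate early genes 4 were higher in the lower step, and the upper step exceeded the lower in 25. KLF6 averaged 63.5, 69.7, 78.5 and 388 CPM from vehicle to high dose. Of the cholesterol genes 1 was called in the lower step, lower at the medium dose, and INSIG1 averaged 135, 102, 105 and 367 CPM. ABCA1 averaged 66.9, 70.5, 75.6 and 543 CPM. In each of these genes the low and medium doses lay far closer to each other than to the high dose.

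Among the lists that fell, 2 mitotic genes and 2 matrix genes were lower in the lower step, against 44 and 31 in which the upper step was the more negative. MKI67 averaged 273, 270.5, 239 and 116 CPM, COL1A1 3258, 3143, 3190 and 701 CPM and ID1 259.8, 341, 339 and 48.2 CPM from vehicle to high dose. ID1 was thus higher at the low and medium doses than in the vehicle and lower than the vehicle at the high dose. Among genes averaging at least 2 CPM over the libraries of both steps, the largest negative difference between the steps was in ID3 (-3.14, SE 0.09, adjusted p = 5.1e-35), and the largest positive one in CXCL2 (4.22, SE 0.53, adjusted p = 2.2e-09).

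**Figure D3:**
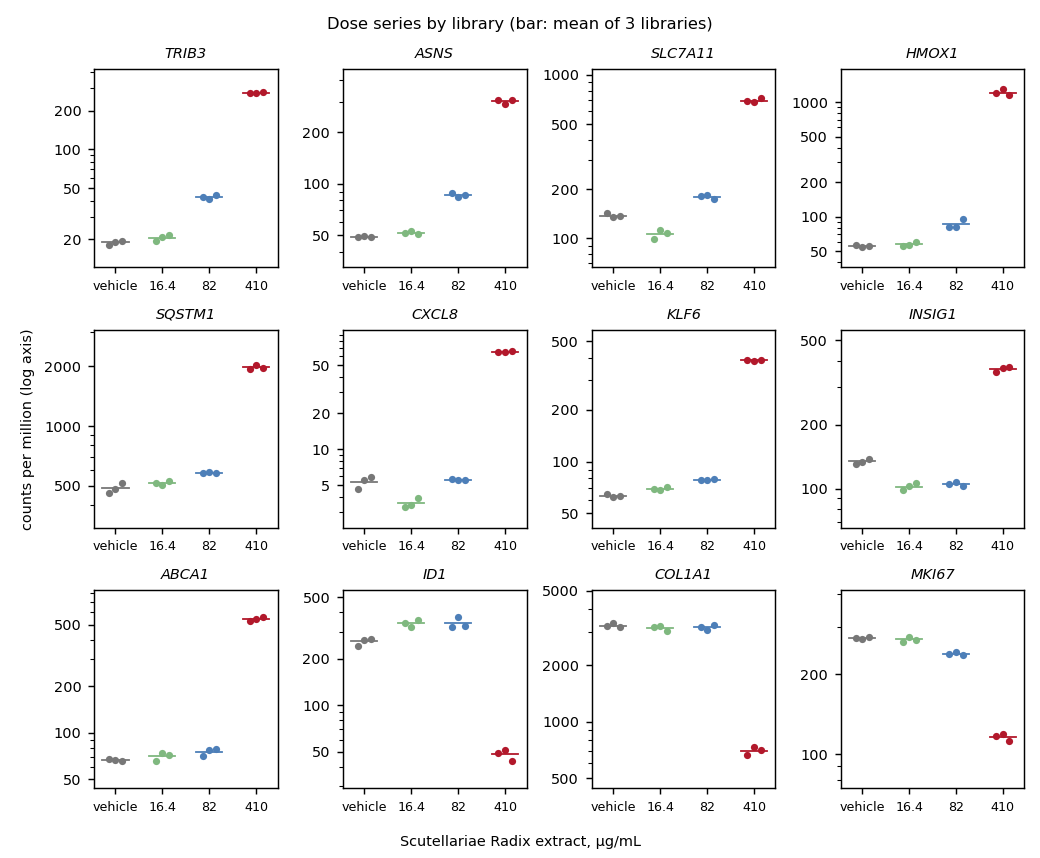
Level of 12 genes in every vehicle, low (16.4 µg/mL), medium (82 µg/mL) and high dose (410 µg/mL) library, in CPM on a log axis that differs between panels, with a bar at the mean of 3 libraries. TRIB3, ASNS and SLC7A11 are higher at the medium than at the low dose, while KLF6, INSIG1, ABCA1 and COL1A1 differ far less between the low and the medium dose than between the medium and the high dose.

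**Figure D4:**
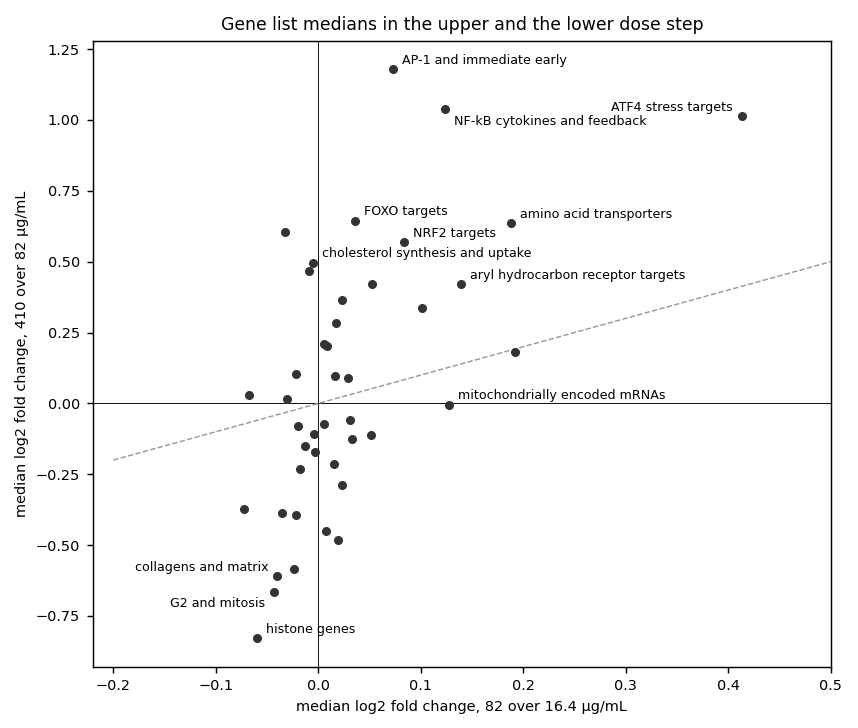
Median log2 fold change of each of 43 gene lists in the lower step (82 over 16.4 µg/mL, horizontal axis) and the upper step (410 over 82 µg/mL, vertical axis), 1 point per list, with a dashed line of equality; the steps share the medium-dose libraries. The ATF4 list lies farthest to the right, at 0.41 and 1.01.

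The same 5-fold step from medium to high dose was set against 2 other extracts of the series, which differ from it and from each other in dose. The Coptis step ran from 4 to 20 µg/mL and the Pinellia step from 100 to 500 µg/mL, and no library is shared between the extracts. The Scutellaria step differed from the Coptis step in 11003 of 17569 genes (62.6%) and from the Pinellia step in 7876 (44.8%).

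Coptis, the rhizome known for the alkaloid berberine, changed many of the same lists by a different amount or in another direction. The ATF4 list had a median of 1.01 in the Scutellaria step and 0.43 in the Coptis step, and the difference was positive in 27 of 35 members and negative in 4. NRF2 targets had medians of 0.57 and 0.02, with HMOX1 changing by 3.82 in Scutellaria and 1.48 in Coptis. The Coptis median of 0.02 covers a split list, with 14 members higher and 13 lower. AP-1 and immediate early genes had medians of 1.18 and 0.20, and EGR1 changed by 1.21 in Scutellaria and -2.61 in Coptis (difference 3.82, SE 0.16, adjusted p = 2.8e-27).

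Mitotic genes fell in both extracts, 46 of 46 with a median of -0.67 in Scutellaria and 38 of 46 with a median of -0.57 in Coptis. The share of all genes called in the Coptis step alone was not counted. Counts of members called in that step therefore have no such share beside them. The difference was positive in 18 members and negative in 17. Matrix genes fell in Scutellaria (-0.61) and had a median of 0.06 in Coptis, and the difference was negative in 32 of 35 members. That Coptis median covers a split list, with 15 members higher and 12 lower. Among those lower in Coptis were COL1A1 (-1.945), COL1A2 (-1.57) and COL5A1 (-1.24), so these collagens fell in both extracts. Cytosolic ribosomal protein genes had medians of -0.13 in Scutellaria and 0.47 in Coptis, and the difference was negative in all 64 members. Hypoxia and glycolysis genes were likewise lower in Scutellaria (-0.23) than in Coptis (0.34), with a negative difference in 33 of 41 members and a positive one in 5. Scaling to library totals alone, without the trimmed mean, called 11052 genes in this comparison of which 7429, or 67.2%, were positive, against 50.9% with the trimmed mean. That scaling moved the median difference over all genes to 0.23, against 0.04 on the log2 scale. Under it the difference was positive in 30 and negative in 2 ATF4 targets, negative in 29 matrix, 63 ribosomal protein and 30 hypoxia and glycolysis genes, and positive in 22 and negative in 13 mitotic genes.

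Pinellia, a tuber of East Asian medicine, was set beside it in the same way. NF-kB genes had a median of 1.04 in the Scutellaria step and 1.18 in the Pinellia step, and the difference was positive in 11 and negative in 7 of 32 members. CXCL8 changed by 3.55 in Scutellaria and 3.33 in Pinellia, and IL6 by 1.73 and 1.71. The ATF4 list, by contrast, had a median of 0.02 in Pinellia, and the difference was positive in 34 of 35 members. Mitotic genes had a median of 0.05 in Pinellia, with the difference negative in 45 of 46. GDF15 changed by 4.25 in Scutellaria and 0.07 in Pinellia (difference 4.18, SE 0.14, adjusted p = 4.1e-31). ID2 changed by -3.28 in Scutellaria and -0.03 in Pinellia (difference -3.24, SE 0.12, adjusted p = 3.8e-30). These changes were not particular to Scutellaria: in the Coptis step GDF15 changed by 3.44, ID1 by -1.40, ID2 by -0.44 and ID3 by -1.35.

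**Figure D5:**
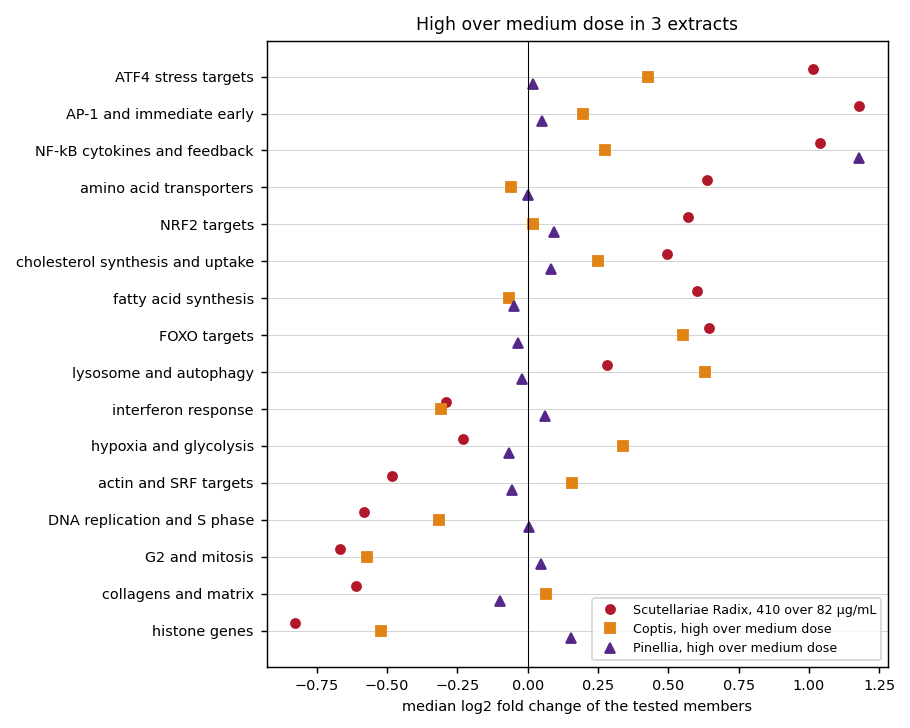
Median log2 fold change of the high over the medium dose for 16 gene lists in Scutellariae Radix (circles, 410 over 82 µg/mL), Coptis (squares, 20 over 4 µg/mL) and Pinellia (triangles, 500 over 100 µg/mL). For NF-kB genes the Pinellia median (1.18) lies beside that of Scutellaria (1.04), while for ATF4 targets it lies at 0.02.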

How the data were processed

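The deposited table holds expected counts per Ensembl gene for 60 libraries, estimated by the authors, with FastQC 0.11.9, Trim Galore 0.6.5, STAR 2.7.3a, RSEM 1.3.3 and the builds GRCh38 and hg38 named in the submitters' processing notes. Per the labels' protocols the libraries came from an MGI directional kit, read as 100 bp pairs, from RNA with an integrity number above 7. The sources used here give no annotation release, strand setting or parameters, so reads of a gene and of its antisense partner may not be separated. Whole numbers made up 90.5% of its values. The rest were rounded, which changed library totals by at most 2.2e-04%. Gene symbols came from a names table for 41209 of 60675 genes and from GENCODE release 29 for 810, and coordinates from that release on GRCh38.

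Counts were fitted in R 4.3.3 with edgeR 4.0.16 (limma 3.58.1): all 60 libraries, 1 mean for each of 20 groups, genes kept by filterByExpr (17569), trimmed mean of M values scaling, and the quasi-likelihood test with Benjamini-Hochberg adjustment over all tested genes, called at an adjusted p under 0.05. The fit had 40 residual degrees of freedom and a common biological coefficient of variation of 3.24%. Library totals ran from 20185782 to 32788018 counts. Replicates of a dose differed by more than sampling noise, so none were merged. On simulated counts for the high against the medium dose (17456 genes), the test recovered 30 of 50 changes of 1.2-fold, 43 of 50 of 1.5-fold, 49 of 50 of 2-fold and 50 of 50 of 4-fold, with 14 false calls among 186. Only these 50 genes at each fold were changed there, far fewer than the 57.3% called in the data. They were drawn from genes averaging above 1 CPM at the medium dose, so recovery at lower levels was not simulated. The recovery and false calls of the simulation may therefore not carry over to the data.

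Alternatives were relative log expression scaling, library totals alone, DESeq2 1.42.0, no filter, an exon length trend taken out, only the compared groups, the replicate number as a block, a fold of at least 1.5, and each library left out in turn. The members and the gene lists were chosen with earlier results of these data known. Genes were named by rule: the 12 called genes that rose most and the 12 that fell most (with a symbol, at least 2 CPM on average and doses that do not overlap), the 4 members of lowest p in any list with 3 or more calls, 30 single genes, and the 5 largest differences each way in the tests between steps (called, with a symbol and at least 2 CPM on average over the libraries compared). Results of a few genes are not reported here. Other list members appear with their values only to describe their list.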

Additional observations from a re-analysis of the deposited data

Results flagged for a closer look

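Effects of a dose step that differed between steps or extracts are given here with the tested difference on the log2 scale. Ranks are among called genes with a symbol and an average of at least 2 CPM over the libraries compared, so genes of lower level can differ more, such as KANK4 (-3.48) and HRK (4.27) between the Scutellaria steps. All were called with edgeR at an adjusted p under 0.05, and no cause was tested.

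The upper Scutellaria step differed from the lower one in 6725 genes. The most negative differences were -3.14 for ID3, -3.13 for ID2, -3.08 for DLX3, -3.07 for SERPINB3 and -2.95 for ATOH8. The most positive were 4.22 for CXCL2, 3.73 for THBD, 3.25 for HMOX1, 3.15 for KCP and 3.12 for ATF3.

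The Scutellaria step differed from the Coptis step in 11003 genes. The most positive differences were in PAPPA-AS1 (9.27), the keratin associated genes KRTAP1-5 (4.47) and KRTAP2-3 (4.17), EGR1 (3.82) and the activin subunit INHBE (3.77). The most negative were in the neurotrophin receptor NGFR (-5.16), the keratin KRT17 (-3.84), FGFR3 (-3.62), the clock output factor DBP (-3.59) and HRCT1 (-3.20). For PAPPA-AS1, NGFR and KRT17 the Scutellaria doses overlapped and the step did not pass the test (0.36, 0.18 and -0.58), while the Coptis step was 5.35 for NGFR and 3.26 for KRT17. PAPPA-AS1 had no count in any of the 3 Coptis high-dose libraries, so its fitted difference depends on the prior count and is not a bound, and it varied within Scutellaria doses, with 4.50, 0.846 and 4.90 CPM at the high dose and 2.06, 4.18 and 1.83 CPM at the medium dose.

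The Scutellaria step differed from the Pinellia step in 7876 genes. The most negative differences were -3.24 for ID2, -3.24 for KANK4, -3.16 for ID3, -3.04 for ATOH8 and -3.02 for ID1. The most positive were 4.19 for PHLDA1-AS1, 4.18 for GDF15, 3.63 for THBD, 3.59 for KCP and 3.44 for HMOX1. PHLDA1-AS1 lies opposite PHLDA1, and without a stated strand setting their reads cannot be told apart.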

How the results depend on the processing

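The count of genes called between the high and the medium dose was 10068, and from 9421 with DESeq2 to 10102 with the length trend taken out in the other planned settings, except the fold minimum of 1.5, which left 3164. With each library left out in turn it ran from 9397 to 9611. The medium against low count of 289 fell to 151 with only the compared groups and to 164 with the replicate block added, was 376 without a filter, and ran from 169 to 218 with a library left out. The cause was not tested beyond the smaller number of libraries in those fits. The other counts stayed within 1.5 times of their values in all settings run. Same-numbered high and medium libraries did not deviate together (correlations of 0.024, -0.028 and 0.016). Pairing by number was thus not seen, though 3 libraries a dose cannot exclude it. Under the replicate block 9501 genes were called between high and medium, against 9563 in the same libraries without it. In the differences from the lower, the Coptis and the Pinellia step the block gave 6375, 10627 and 7049. The same libraries without it gave 6107, 10636 and 7173. Of 2574 gene and alternative pairs over 198 named genes, 2573 kept their side of the threshold, and those of called genes kept their direction. Direction was not compared where a gene, such as CYP1A1, was called neither in the main fit nor in the alternative. PHLDA1-AS1 lost its call under DESeq2 (log2 fold change 1.71, adjusted p = 0.26). Counts of called list members moved by more than 1.5 times for mitochondrial mRNAs and for both ribosomal protein lists, as given with them, and for the endothelial markers (4 called, 2 without high-dose replicate 2 and 1 without medium-dose replicate 3) and the T cell markers (0 called, 1 without high-dose replicate 1 or medium-dose replicate 3). At 20185782 to 32788018 counts a library, changes of 1.2-fold were recovered less often than larger ones in the simulation.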

Other observations

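Gene types differed in how often they were called between the high and the medium dose. Of 13779 protein-coding genes 64.8% were called, 4511 higher and 4421 lower, with a median log2 fold change of 0.0. Long intergenic RNAs were called in 36.5% of 828 genes, 121 higher and 181 lower, and antisense RNAs in 26.9% of 1167, 134 higher and 180 lower. Transcribed unprocessed pseudogenes, copies of genes that are still transcribed, were called in 48.9% of 266, 94 higher and 36 lower, with a median of 0.19. Reads of such copies and of their parent genes may not be separated by the estimation of counts, and shares called also depend on level, so these values are a description.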
